A study of Homo sapiens with 6 samples.

Results

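The SOX genes encode transcription factors that share a DNA-binding domain, the HMG box, and 10 of them were followed here in LN229 cells, a cell line established from a human glioblastoma (grade IV glioma). The members were taken by name, SOX2, SOX4, SOX5, SOX6, SOX8, SOX9, SOX10, SOX11, SOX12 and SOX13, and each was found under its GENCODE 29 symbol among the 33890 genes of the deposited table. The study measured polyadenylated RNA in 2 groups of 3 libraries each: LN229 cells treated with ursodeoxycholic acid (UDCA), a bile acid used as a drug, at 800 µM for 48 h, and LN229 cells without treatment. All libraries come from this 1 line, and no label states whether the libraries of a group were grown as separate cultures, so p-values describe the spread between these libraries, which may be technical.

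The HMG box binds the minor groove of DNA and bends it, and SOX proteins usually act with a partner factor bound beside them. The family is divided into groups by the sequence of the box. SOX2 belongs to group B1, which keeps neural stem cells undifferentiated, and is widely used as a marker of stem-like glioma cells. SOX8, SOX9 and SOX10 form group E, which works in neural crest, cartilage and myelin-forming glia. SOX4, SOX11 and SOX12 form group C, known from immature neurons and many tumours, and SOX5, SOX6 and SOX13 form group D, which lacks a transactivation domain of its own and often acts beside SOX9 or SOX10.

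The part of the genes that gives the family its name is shown for 5 members whose levels are compared below: SOX10 and SOX2, the most abundant in control cells, and the complete group C. Each line is the start of a window of 70 codons of the HMG box, 90 of its 210 bases, from GENCODE 29 transcripts, 5′ to 3′ on the coding strand. Capitals mark the codons of the motif arginine-proline-methionine-asparagine-alanine-phenylalanine, by which the window was placed.
SOX10: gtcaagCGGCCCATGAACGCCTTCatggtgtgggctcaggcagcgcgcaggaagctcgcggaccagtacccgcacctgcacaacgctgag
SOX2: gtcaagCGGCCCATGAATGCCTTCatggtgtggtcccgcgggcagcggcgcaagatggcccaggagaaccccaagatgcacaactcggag
SOX4: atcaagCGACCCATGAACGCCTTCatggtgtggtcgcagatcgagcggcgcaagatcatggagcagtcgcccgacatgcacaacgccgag
SOX11: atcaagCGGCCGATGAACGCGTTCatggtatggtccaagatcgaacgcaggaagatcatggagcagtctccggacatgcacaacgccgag
SOX12: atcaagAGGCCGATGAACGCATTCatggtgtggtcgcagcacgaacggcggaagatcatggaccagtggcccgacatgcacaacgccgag

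All 10 members held this motif. Over the 210 bases, the 9 pairs of members within a SOX group were identical at 80% to 91.4% of positions, and the 36 pairs from different groups at 55.7% to 76.7%. The highest value within group C was that of SOX4 and SOX11, at 88.6%. The longest run of equal bases in the window was 37, between SOX8 and SOX9. No stretch of 50 bases was common to transcripts of any pair of members. With transcripts of other genes, the members shared at most 2.09% of their stretches of 50 bases on either strand, the highest being SOX4. For SOX2 that share was 2.03%, mainly with SOX1, for which no values are given here. The length of the sequenced reads is not given in the sources used here.

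**Figure D1:**
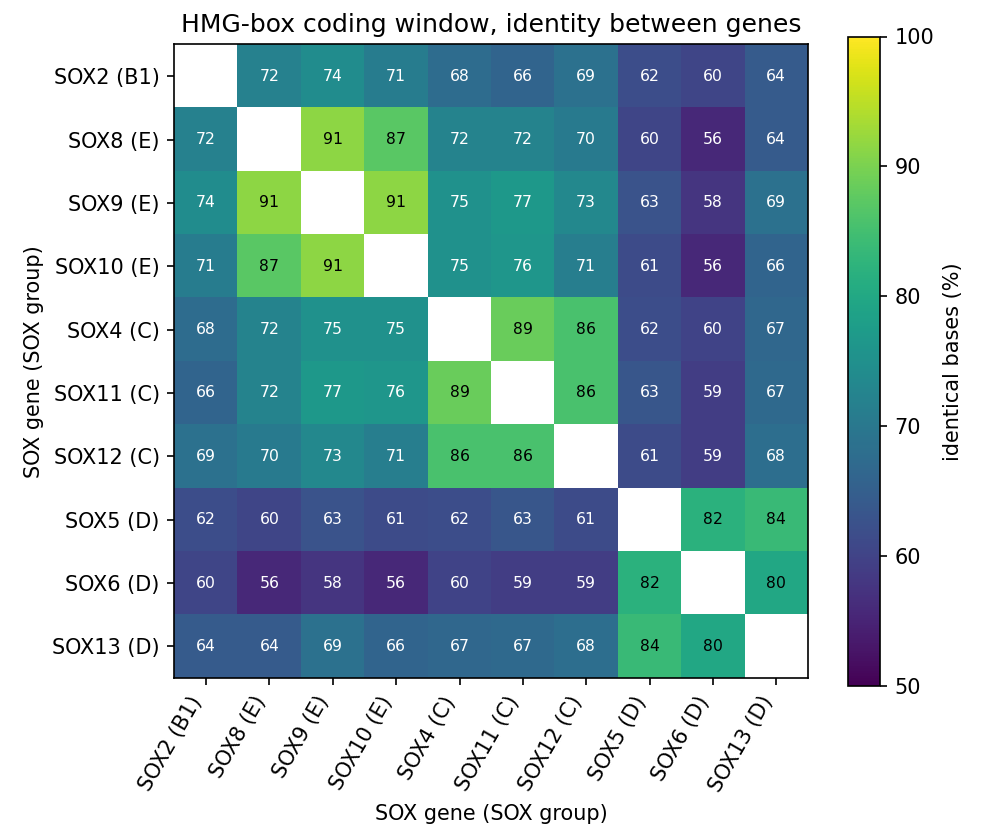
Percentage of identical bases between the HMG-box coding windows (210 bases) of each pair of the 10 SOX genes, both axes listing the genes with their SOX group. Blocks of high identity, 80% to 91.4%, lie within groups E, C and D, and values between groups reach 76.7%.

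Levels are given as FPKM (sequenced fragments scaled to exon length and library total), as deposited, for replicates 1, 2 and 3 of a group, and changes as the log2 change of FPKM + 1, UDCA minus control, with its standard error (SE). On that scale the fold of a gene near 1 FPKM or less comes out too small, so the ratio of mean FPKM is given too. The libraries held 15988951 to 17045218 reads with UDCA and 16639832 to 17743022 in control, recovered from the deposited values. Of 14380 genes tested, 80.8% passed an adjusted p under 0.05 (limma), 45.1% of genes tested being higher and 35.7% lower with UDCA, so a call alone says little about a gene. Their median log2 change was 0.095, and it was 0.0023 when libraries were scaled by the median ratio of genes, where 5826 genes were called higher and 5788 lower, beside 6491 and 5133 as reported. GFAP, the intermediate filament gene of astrocytes, averaged 0.505 ± 0.0586 FPKM with UDCA and 0.612 ± 0.0807 FPKM in control (SD, n = 3 each). This marker of astrocytic cells was thus low, under 1 FPKM, in both groups, and 18.4% of its exon bases also lie in exons of CCDC103. GFAP is 1 of 8 glial and glioma markers looked for, and others of them, such as S100B and VIM, were abundant in control, as given below.

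Most SOX genes were lower in UDCA-treated cells, and by unequal factors. Of the 10 members, 9 passed the filter on low values, none of them through only 1 group, and all 9 were called, 8 lower and 1 higher, against 35.7% and 45.1% of all genes tested. The groups did not overlap for any of the 9, as for 82.8% of genes tested. SOX2 and SOX10 fell furthest, SOX12 fell least, SOX11 was the 1 member that rose, and SOX9 was too low to test. The median log2 change of the 9 was -1.60. In bulk RNA, fewer cells that express a gene and less RNA per cell cannot be told apart.

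**Figure D2:**
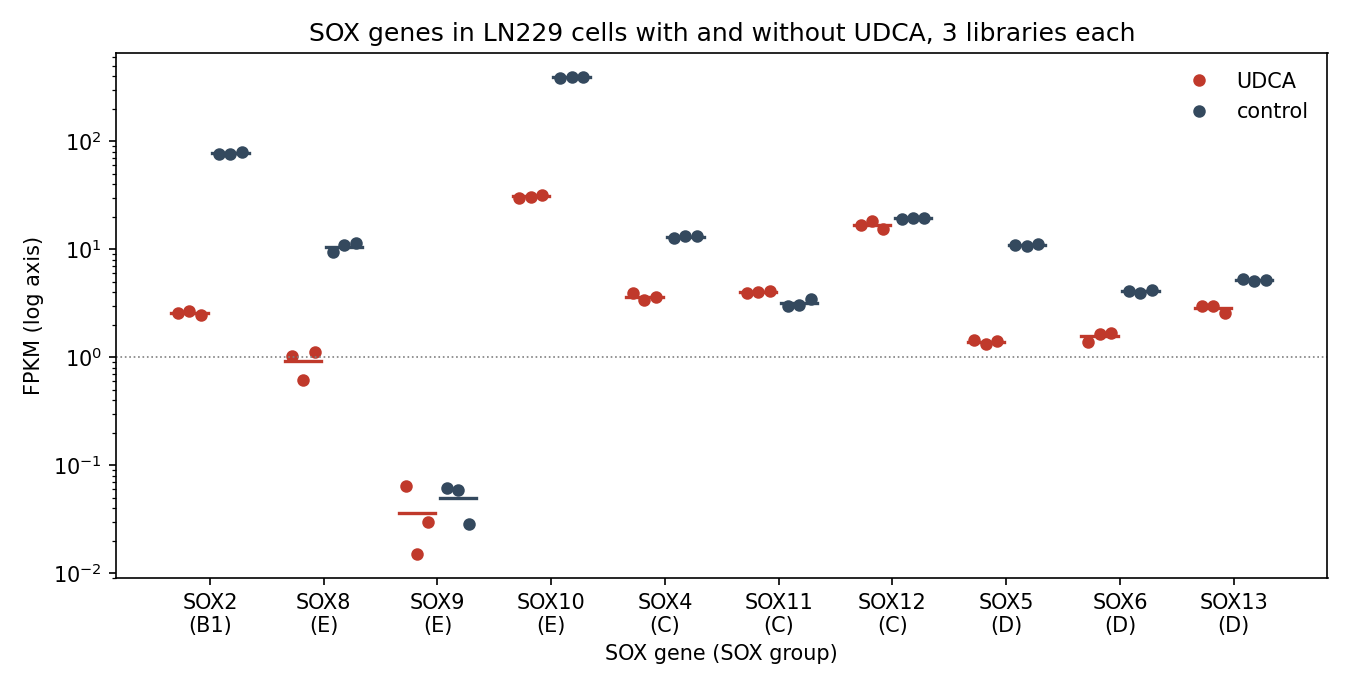
FPKM on a log axis for the 10 SOX genes in each library, UDCA on the left of each pair and control on the right, with the group mean as a line and a dotted line at 1 FPKM. SOX10 stood at 30.8 FPKM with UDCA and 390 FPKM in control on average, SOX9 lay under 0.1 FPKM in each library, and SOX11 was the only gene with all UDCA points above all control points.

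SOX10 (chromosome 22, 37970686 to 37987422, GRCh38) directs neural crest, melanocyte and myelinating glial programmes, and it was the most abundant SOX transcript per length in both groups. It had 29.9, 30.4 and 32.0 FPKM with UDCA, against 388, 389 and 394 FPKM in control. The spread within each group was small beside the gap between them. SOX10 fell 12.7-fold by the ratio of means, with a log2 change of -3.62 ± 0.0273 (SE, adjusted p = 4.32e-10). By mean FPKM it ranked 1387 with UDCA and 42 in control among the 33890 listed genes. In the same fit 125 of the genes tested fell further. Of the exon bases of SOX10, 2.40% also lie in exons of POLR2F, an RNA polymerase subunit gene on the other strand, which averaged 7.36 ± 0.122 FPKM with UDCA and 16.7 ± 0.985 FPKM in control. Whether counting used strand is not given in the sources used here, so reads from those shared bases cannot be told apart.

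SOX8, the close relative of SOX10 in group E, was lower as well. It had 1.02, 0.609 and 1.12 FPKM with UDCA, against 9.32, 10.9 and 11.5 FPKM in control. Its UDCA values rest on 72, 46 and 84 reads, and replicate 2 was the lowest of them. SOX8 fell 11.6-fold by the ratio of means (log2 change -2.60 ± 0.122, adjusted p = 1.25e-06). SOX10 stood at 36.0 ± 12.1 times the level of SOX8 per length with UDCA and at 37.2 ± 3.90 times in control (SD, n = 3 each), values that overlap (exact 2-sided permutation test, p = 1).

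SOX9, which drives cartilage and also astrocyte and neural stem cell programmes, was nearly without reads. It had 4, 1 and 2 reads with UDCA, against 4, 4 and 2 reads in control, or 0.0361 ± 0.0249 FPKM with UDCA and 0.0496 ± 0.0182 FPKM in control (SD, n = 3 each). A difference was not detectable at this depth (exact 2-sided permutation test, p = 0.7, where 0.1 is the smallest that 3 against 3 libraries allow). The group E transcripts detected above 0.1 FPKM were those of SOX10 and SOX8.

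SOX2 (chromosome 3, 181711924 to 181714436), a factor of neural stem cells and one of the pluripotency factors, showed the largest fall in the family. It had 2.59, 2.66 and 2.48 FPKM with UDCA, against 75.8, 76.4 and 78.7 FPKM in control. SOX2 fell 29.9-fold by the ratio of means, to 3.35% of its control level, with a log2 change of -4.45 ± 0.0311 (adjusted p = 3.52e-10). Only 73 of the 14380 genes tested fell further. SOX2 was the second SOX gene by level in control, with no overlap with its neighbours in that order, and the sixth with UDCA, where its values overlapped those of SOX13.

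SOX2-OT, a long noncoding RNA gene whose span (chromosome 3, 180989762 to 181836880) encloses the single exon of SOX2 on the same strand, was also lower. It had 0.0791, 0.0816 and 0.0820 FPKM with UDCA, against 0.929, 0.831 and 0.857 FPKM in control, from 128 reads in all UDCA libraries and 1422 in all control libraries. That is a ratio of means of 10.8 in favour of control. It lay under the filter and has no p in the main test, and the exact permutation test gave the smallest possible p of 0.1.

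The 3 genes of group C, whose HMG boxes are among the most alike in the family, moved in different ways. SOX4 (chromosome 6, 21592768 to 21598619), which is induced by TGF-beta and acts in progenitors and in epithelial-mesenchymal transition, had 3.92, 3.39 and 3.61 FPKM with UDCA, against 12.7, 13.3 and 13.2 FPKM in control. It fell 3.58-fold (log2 change -1.60 ± 0.0506, adjusted p = 1.81e-07). The groups were far apart compared with the spread within them.

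SOX11 (chromosome 2, 5692667 to 5701385), a factor of embryonic neurons, had 3.95, 3.99 and 4.07 FPKM with UDCA, against 3.00, 3.05 and 3.45 FPKM in control. It rose 1.26-fold (log2 change 0.27 ± 0.0570, adjusted p = 0.00393). The rise is small, and it stood at 0.18 with median-ratio scaling (adjusted p = 0.0254, the highest of its alternatives, which began at 5.06e-05). In the same fit 41.2% of genes tested rose further.

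SOX12 (chromosome 20, 325595 to 330224), the least studied gene of the group, had 16.8, 18.3 and 15.4 FPKM with UDCA, against 19.2, 19.3 and 19.4 FPKM in control. It fell to 87.2% of its control level (log2 change -0.19 ± 0.0561, 95% confidence interval -0.32 to -0.055, adjusted p = 0.0169). The UDCA libraries spread more than the control libraries, and the change was -0.29 with median-ratio scaling. Its adjusted p ranged from 0.000587 to 0.0481 over the alternatives.

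Within single libraries the balance of group C was different. SOX11 stood at 1.10 ± 0.0870 times the level of SOX4 per length with UDCA and at 0.243 ± 0.0172 times in control (SD, n = 3 each). SOX12 stood at 4.27 to 5.39 times the level of SOX4 with UDCA and at 1.46 to 1.51 times in control. Neither ratio overlapped between the groups, and each had the smallest exact permutation p of 0.1. These ratios do not depend on how libraries are scaled to each other.

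**Figure D3:**
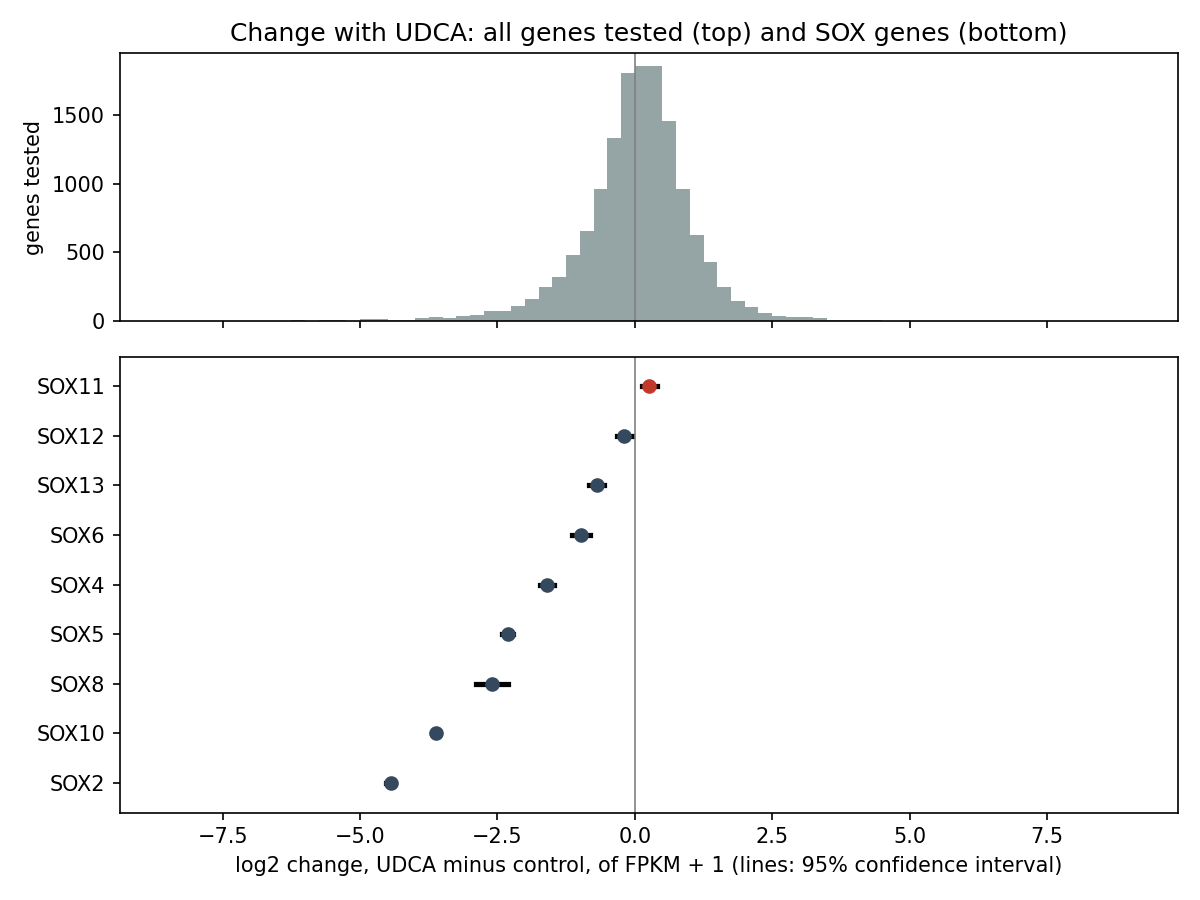
Top, number of genes tested by log2 change (UDCA minus control, FPKM + 1). Bottom, the same quantity for the 9 SOX genes tested, with 95% confidence intervals. SOX2 at -4.45 and SOX10 at -3.62 lie in the far left tail, and SOX11 at 0.27 is the only SOX gene right of 0.

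Group D was lower throughout, SOX5 most. SOX5, which with SOX6 supports cartilage formation and tempers oligodendrocyte differentiation, had 1.43, 1.33 and 1.42 FPKM with UDCA, against 11.0, 10.6 and 11.1 FPKM in control. It fell 7.84-fold (log2 change -2.32 ± 0.0445, adjusted p = 1.83e-08). SOX5 was level with SOX8 in control, where their values overlapped, and with SOX6 in treated cells, where they overlapped too.

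SOX6 had 1.37, 1.65 and 1.69 FPKM with UDCA, against 4.10, 3.96 and 4.19 FPKM in control. It fell 2.60-fold by the ratio of means (log2 change -0.98 ± 0.0666, adjusted p = 8.64e-06). SOX13, a group D gene known from immune and vascular tissue, had 2.95, 3.00 and 2.59 FPKM with UDCA, against 5.34, 5.08 and 5.20 FPKM in control. SOX13 fell 1.83-fold (log2 change -0.69 ± 0.0574, adjusted p = 2.59e-05). The falls in this group were ordered SOX5, SOX6, SOX13, and their 95% confidence intervals did not overlap for SOX5 and SOX6, but met for SOX6 and SOX13 at -0.83.

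With these changes the make-up of the family was different. The 10 members summed to 64.6 ± 0.678 FPKM with UDCA and to 534 ± 6.40 FPKM in control (SD, n = 3 each), 8.26-fold less. SOX10 held 47.6% ± 1.72 of that sum with UDCA and 73.2% ± 0.266 in control, and SOX2 held 3.99% ± 0.116 with UDCA and 14.4% ± 0.106 in control. Group C held 37.9% ± 1.77 with UDCA and 6.66% ± 0.0445 in control, most of it SOX12, at 26.1% ± 2.0 with UDCA and 3.62% ± 0.0223 in control. These are larger shares of a smaller sum: SOX12 itself averaged 16.9 FPKM with UDCA and 19.3 FPKM in control, SOX4 fell too, and SOX11 rose slightly. The share of SOX5 was nearly the same, at 2.15% ± 0.107 with UDCA and 2.04% ± 0.0503 in control. By level the order in treated cells was SOX10, SOX12, SOX11, SOX4, SOX13, SOX2, SOX6, SOX5, SOX8 and SOX9, and in control cells SOX10, SOX2, SOX12, SOX4, SOX5, SOX8, SOX13, SOX6, SOX11 and SOX9.

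**Figure D4:**
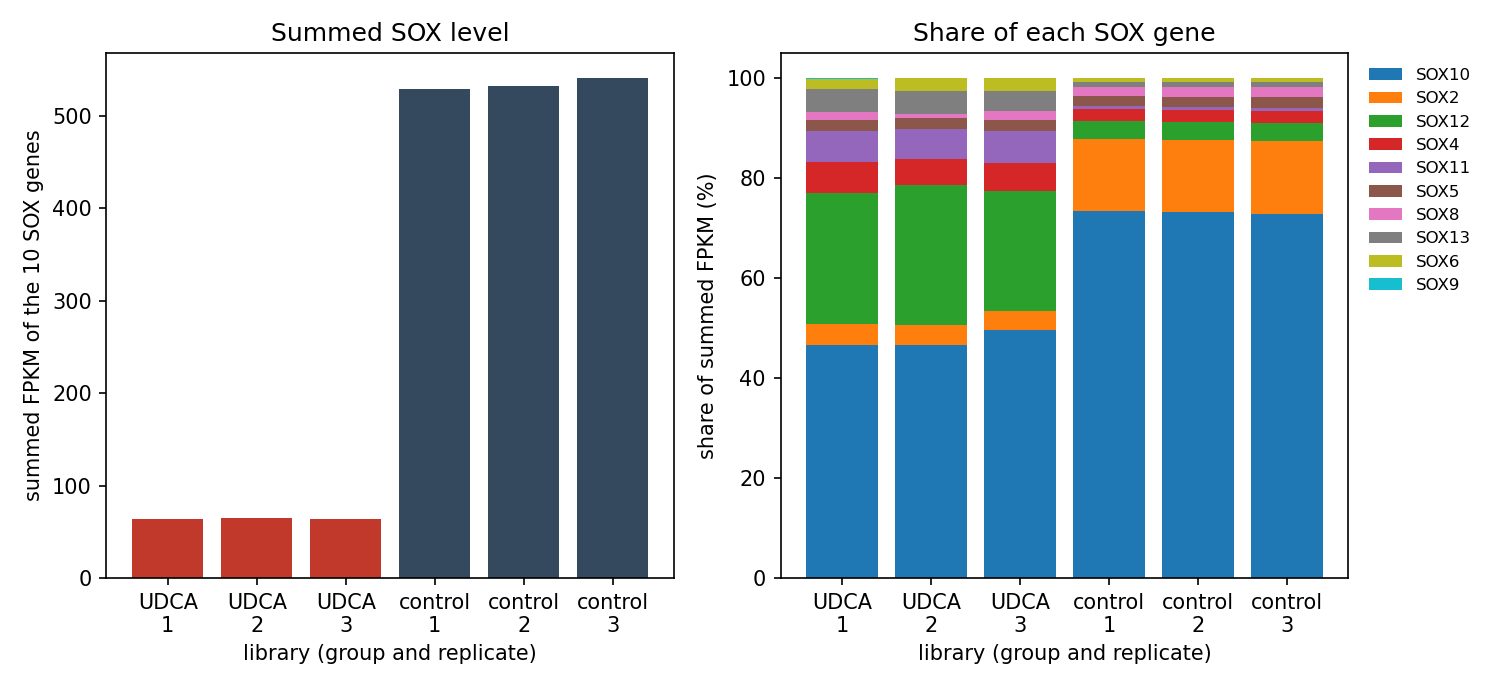
Left, summed FPKM of the 10 SOX genes in each library, UDCA libraries before control libraries. Right, the percentage of that sum held by each gene. SOX10 held 46.6% to 49.6% in UDCA libraries and 72.9% to 73.4% in control libraries. The band of SOX12 is wider with UDCA as a share of a smaller sum, while its FPKM was lower.

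Promoters are shown for a gene with a large fall and one with a small fall, SOX2 and SOX12, as 300 bases around the start (RefSeq, GRCh38.p14, 5′ to 3′). The SOX2 window is chr3:181711675-181711974 on the plus strand and the SOX12 window is chr20:325302-325601 on the plus strand. Capitals mark matches on either strand. The letters searched were TATAAA for the TATA box, CCAAT for the CCAAT box and GGGCGG for the GC box. For core SOX sites they were ACAAAG and also ACAATG.
SOX2: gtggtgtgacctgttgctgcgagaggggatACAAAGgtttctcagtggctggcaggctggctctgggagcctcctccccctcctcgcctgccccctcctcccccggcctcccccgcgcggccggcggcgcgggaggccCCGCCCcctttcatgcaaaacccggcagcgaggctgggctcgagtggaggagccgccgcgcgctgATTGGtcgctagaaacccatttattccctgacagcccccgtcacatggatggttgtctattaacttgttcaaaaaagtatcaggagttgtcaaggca
SOX12: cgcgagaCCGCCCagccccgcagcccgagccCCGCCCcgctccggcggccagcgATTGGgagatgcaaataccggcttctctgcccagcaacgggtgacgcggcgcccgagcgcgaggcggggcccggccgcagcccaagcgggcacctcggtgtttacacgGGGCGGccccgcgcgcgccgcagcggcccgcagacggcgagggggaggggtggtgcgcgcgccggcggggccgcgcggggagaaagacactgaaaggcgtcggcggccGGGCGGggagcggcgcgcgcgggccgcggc

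The SOX2 window held 1 CCAAT box, 1 GC box and 1 ACAAAG, and the SOX12 window held 1 CCAAT box and 4 GC boxes. Of 35116 promoter windows of the same length in that table, 34.6% held a CCAAT box, 45.0% a GC box, 16.1% ACAAAG, 10.8% ACAATG and 11.5% a TATA box. The SOX4 window held 4 CCAAT boxes, and it lies inside the span given for SOX4 above. The SOX5 window held 2 copies of ACAATG. The table gave windows for 6 of the 10 members, 5 of them with 1 start and SOX6 with more. The SOX6 window chr11:16356497-16356796 held 3 copies of ACAAAG and 1 of ACAATG. The SOX6 window chr11:16738428-16738727 held neither. A match is a description of letters and not evidence of binding.

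The other SOX genes were low. Of 9 further SOX genes looked for, 5 were listed and only SOX15, the single member of group G, was tested, and it was lower. SOX15 had 1.83, 1.33 and 1.41 FPKM with UDCA, against 2.22, 2.15 and 2.52 FPKM in control (log2 change -0.39 ± 0.0931, adjusted p = 0.00662). SOX30, a testis-expressed gene under the filter, had 26, 42 and 44 reads with UDCA, against 1, 2 and 6 reads in control. SOX21 had no read in any UDCA library, against 4, 4 and 6 reads in control, at least 4.52-fold lower with a floor of 3 reads over the UDCA group, for counting error only. SOX7 and SOX17 had at most 10 reads in either group. Among 7 noncoding RNA genes of SOX loci, 5 were listed, SOX2-OT among them, and none reached the filter. They went different ways. SOX21-AS1 had no read in any UDCA library, against 10, 16 and 4 reads in control. CASC15 had 24, 23 and 23 reads with UDCA, against 1, 1 and 0 reads in control. ROCR had 1, 5 and 2 reads with UDCA, against 0, 0 and 1 reads in control, and SOX9-AS1 had 2 reads in each group.

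Genes that SOX10 is known to activate in Schwann cells, oligodendrocytes or melanocytes were lower beside it. Of 14 such genes, 13 were listed and 9 tested, and all 9 fell, the median of their log2 changes being -2.72 beside 0.095 for all genes tested. Of these, 2 passed the filter only through control, so they had to differ, and the remaining 7 tested all fell. The share called lower among all genes tested was 35.7%. This list, like the others below, was chosen with earlier results of these data known.

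ERBB3, a neuregulin receptor of the glial lineage, had 2.11, 2.01 and 2.09 FPKM with UDCA, against 73.7, 73.6 and 72.8 FPKM in control (log2 change -4.60 ± 0.0274, adjusted p = 2.29e-10). S100B, a calcium-binding protein of glial and Schwann cells, had 12.5, 12.6 and 12.5 FPKM with UDCA, against 288, 295 and 275 FPKM in control (log2 change -4.41 ± 0.0287, adjusted p = 2.66e-10). Both genes had larger falls than SOX10, with 95% confidence intervals that did not overlap its own. CNP, an enzyme of myelinating glia, fell 7.47-fold, to 6.25 ± 0.0218 FPKM with UDCA, against 46.7 ± 0.198 FPKM in control. DCT, a melanin synthesis gene of the same list, was under the filter at 0.434 ± 0.0750 FPKM with UDCA and 0.139 ± 0.00663 FPKM in control, the other way round.

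Progenitor genes linked to SOX2 were lower too. Of 12 such genes, 9 were listed and 5 tested, and all 5 fell, the median of their log2 changes being -1.70. FABP7, a fatty acid binding protein of radial glia, passed the filter only through control and had to differ, and the other 4 fell, where 35.7% of all genes tested were called lower. It had 0.229, 0.129 and 0.216 FPKM with UDCA, against 26.5, 27.8 and 28.0 FPKM in control. NES, the gene of the progenitor filament nestin, had 27.2, 26.7 and 26.8 FPKM with UDCA, against 143, 152 and 149 FPKM in control (log2 change -2.42 ± 0.0264, adjusted p = 1.52e-09). The receptor NOTCH1 fell 3.76-fold and the RNA-binding protein gene MSI2 fell 3.21-fold.

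Cartilage genes known as targets of SOX9 with SOX5 and SOX6 were mostly lower, in cells where SOX9 itself had few reads. Of 16 such genes, 15 were listed and 7 tested, of which 6 fell and 1 rose. Among all genes tested, 35.7% were called lower and 45.1% higher. The median log2 change of the 7 was -1.53, beside 0.095 for all genes tested. COL11A1, a fibrillar collagen, had 25.7, 24.9 and 26.0 FPKM with UDCA, against 174, 171 and 175 FPKM in control (log2 change -2.72 ± 0.0225, adjusted p = 6.02e-10). WWP2, a ubiquitin ligase gene that hosts a cartilage microRNA, fell 5.59-fold, COL9A2 fell 4.34-fold and COL11A2 fell 3.56-fold. MATN4, a matrilin and the 1 gene that rose, passed the filter only through UDCA, so it had to differ. It stood at 1.32 ± 0.192 FPKM with UDCA and 0.268 ± 0.0897 FPKM in control. COL2A1, the classic SOX9 target, was under the filter at 0.0214 ± 0.0193 FPKM with UDCA and 0.610 ± 0.0415 FPKM in control.

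Genes reported downstream of SOX4 and SOX11 went different ways. Of 7 listed, 5 were tested, with 2 called lower, 1 called higher and 2 not called. Among all genes tested, 35.7% were called lower and 45.1% higher. The median log2 change of the 5 was -0.043, beside 0.095 for all genes tested. MARCKSL1, an actin-regulating gene, had 17.4, 16.1 and 16.8 FPKM with UDCA, against 169, 166 and 166 FPKM in control (log2 change -3.24 ± 0.0300, adjusted p = 9.02e-10). TUBB3, the neuronal tubulin and the other gene called lower, passed only through control, so it had to differ. It stood at 0.147 ± 0.0679 FPKM with UDCA and 1.14 ± 0.0995 FPKM in control, and 35.8% of its exon bases lie in exons of another gene. EZH2, the histone methyltransferase, was called higher at 26.8 ± 0.426 FPKM with UDCA and 24.9 ± 0.273 FPKM in control, but its log2 change of 0.10 was -0.0027 with median-ratio scaling.

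Of 12 partner factors that bind DNA beside SOX proteins, 11 were listed and 5 tested. Of these 2 fell, 1 was called higher and 2 were not called, beside 35.7% called lower and 45.1% higher among all genes tested. POU3F2, the neural POU factor that pairs with SOX2 and SOX10, had 0.269, 0.337 and 0.121 FPKM with UDCA, against 5.96, 5.79 and 5.69 FPKM in control. SALL2, a zinc finger factor, stood at 0.565 ± 0.0670 FPKM with UDCA and 2.23 ± 0.0604 FPKM in control. Both passed the filter only through control, so they had to differ, and of the 3 partners that passed otherwise 0 were called lower. POU2F1, a ubiquitous POU factor, was called higher at 4.99 ± 0.107 FPKM with UDCA and 4.28 ± 0.348 FPKM in control (adjusted p = 0.0229), a call lost with median-ratio scaling (0.184), quantile normalization (0.0634), totals without mitochondrial genes (0.0534), without control replicate 2 (0.0501) and without UDCA replicate 1 (0.0562) or 2 (0.0673), over a range of 0.000269 to 0.184. OLIG2, a glial factor, did not pass, at 4.81 ± 0.160 FPKM with UDCA and 4.59 ± 0.509 FPKM in control. OLIG1 of the same list, under the filter, had 0, 1 and 0 reads with UDCA, against 30, 40 and 46 reads in control.

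**Figure D5:**
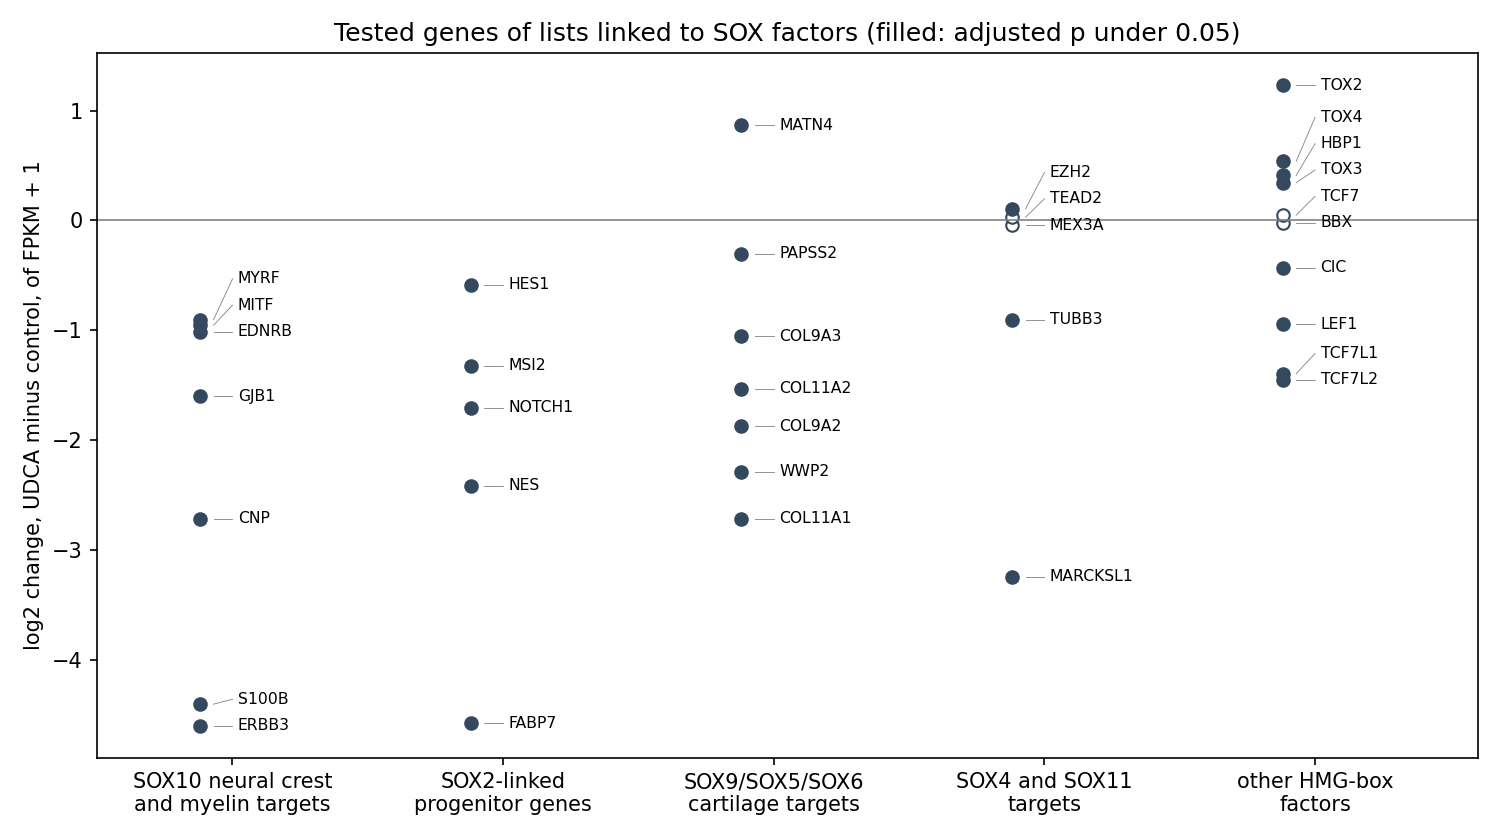
Log2 change (UDCA minus control, FPKM + 1) of tested genes in 5 lists linked to SOX factors, filled points having an adjusted p under 0.05. The 7 points drawn for the SOX10 list, with 2 tested genes not drawn, and the 5 of the SOX2 list lie under 0, GJB1 and FABP7 among them having passed the filter only through control, and the points of the other HMG-box factors lie on both sides, while EZH2 of the SOX4 and SOX11 list lies at 0.10 here and at -0.0027 with median-ratio scaling.

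The genes nearest to SOX2 in level across the 6 libraries, by Euclidean distance of log2(FPKM + 1), were PTTG1 at 0.389, the SOX10-linked ERBB3 at 0.413 and PODXL at 0.468. PTTG1 encodes securin, which guards sister chromatids, and PODXL a sialomucin of the cell surface. PTTG1 stood at 3.13 ± 0.325 FPKM with UDCA and 79.3 ± 1.45 FPKM in control, and PODXL at 3.13 ± 0.210 FPKM with UDCA and 86.2 ± 1.59 FPKM in control. For SOX11 they were USP15 at 0.139, PWWP2A at 0.142 and TM2D3 at 0.162. With 2 groups, such nearness says only that levels are alike in each group.

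Of 6 markers of glial and glioma cells tested, 4 were called lower, S100B, NES, VIM and CD44, and 2 were not called. Among all genes tested, 35.7% were called lower and 80.8% were called in either direction. S100B and NES are also in the SOX10 and SOX2 lists above. VIM stood at 65.1 ± 0.801 FPKM with UDCA and 167 ± 1.83 FPKM in control, and CD44 at 43.9 ± 0.927 FPKM with UDCA and 65.0 ± 0.541 FPKM in control. Of 9 markers of blood, endothelial, epithelial and fibroblast cells, 1 was tested, PDGFRB, which rose 1.71-fold. DCN, a fibroblast proteoglycan gene under the filter, stood at 0.171 ± 0.0138 FPKM with UDCA and 0.881 ± 0.0637 FPKM in control, the other way round. The 9 summed to 3.11 to 3.42 FPKM with UDCA and to 2.55 to 2.88 FPKM in control, and CD3E had no read with UDCA and 1 read in all control libraries. The part of other cell types in the SOX changes was not tested.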

How the data were processed

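Polyadenylated RNA was made into Illumina TruSeq libraries, per the labels. HISAT2, Bowtie2 2.0.6 and GRCh38 are named in the submitters' processing notes, without roles. How reads were counted, and whether strand was used, is not given in the sources used here. Values deposited by the authors are in FPKM, 1 column for each library. This unit was inferred: multiplied by merged exon length (GENCODE 29), 100% of values in each library were whole multiples of 1 step within 0.01 reads, which gave 15988951 to 17743022 reads a library. A floor of 3 reads in 1 kb is 0.169 to 0.188 FPKM, counting error only.

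Genes with at least 1 FPKM in 3 or more of 6 libraries (14380) were tested with limma 3.58.1 (R 4.3.3, trend) on log2(FPKM + 1), group as the only term, 2-sided, with Benjamini-Hochberg adjustment at 0.05. The fit was also run on simulated reads in which few genes changed, unlike these data, so that run says little about this setting. Python 3.11.15 and pandas 2.3.3 made the tables. Between replicates, chi-square divided by its degrees of freedom was 1.67 to 2.73, above sampling noise. Each library counted as 1 sample, though these values do not show that the cultures were separate.

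The members and lists were chosen with earlier results of these data known. Named genes were all members, in each list up to 4 called genes by size of change (mean of 2 FPKM or more in the higher group) and called genes against a list's majority, and the 3 nearest genes in level to SOX2 and SOX11. Some genes that this rule names are not reported here. CD3E, CNP, COL2A1, DCN, DCT, GFAP, GJB1, OLIG1, OLIG2, TCF7, TUBB3 and the SOX-locus genes under the filter were named after their values were seen. Alternatives were 2 scalings, totals without mitochondrial genes, no filter, a pseudocount of 0.1, voom on recovered reads, a replicate block and leaving out each library.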

Additional observations from a re-analysis of the deposited data

How the results depend on the processing

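All 9 SOX genes tested kept their direction and stayed called under each of the 13 alternatives (117 of 117 results), the highest adjusted p being 0.0481 for SOX12 without control replicate 3. SOX2 ranged from -4.89 to -4.43 on the log2 scale, SOX10 from -3.73 to -3.55, SOX8 from -3.57 to -2.48 and SOX11 from 0.18 to 0.34. Over all genes, 11624 were called, 11218 to 11381 without 1 library and 14451 without the filter. The replicate block called 11503 genes and the same 9 SOX genes. The numbers were not taken as pairs, because no label says that they pair the libraries. Same-numbered libraries also did not deviate together (r = -0.00119 to 0.0143 between deviations from group means), and no library correlated best with its own number.

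The log2 change of EZH2, 0.10 as reported, was -0.0027 with median-ratio scaling. The same scaling took the median of all genes tested from 0.095 to 0.0023. The cause of the EZH2 difference was not tested. Without the filter on low values, more list members were tested and 65 rather than 48 were called, 13 rather than 7 of them among the cartilage genes. Depth limits SOX9, SOX7, SOX17 and SOX21, with 14 reads or fewer in each group. Only 1 line, dose and time were measured.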

Other observations

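Of 11 other HMG-box factors outside the SOX family, 10 were tested, 4 were higher, 4 lower and 2 not called, near the 45.1% higher and 35.7% lower of all genes tested, and the median of their log2 changes was 0.014 beside 0.095 for all genes tested. TCF7L2 and TCF7L1, DNA-binding effectors of Wnt signalling, fell 3.37-fold and 3.87-fold, and LEF1 of the same family fell 2.03-fold, to 8.90 ± 0.668 FPKM with UDCA, against 18.04 ± 0.580 FPKM in control. TCF7, the remaining gene of that family, did not pass, at 3.65 ± 0.258 FPKM with UDCA and 3.496 ± 0.129 FPKM in control. TOX2 rose 2.68-fold, to 11.1 ± 0.327 FPKM with UDCA, against 4.15 ± 0.240 FPKM in control.

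Among 10 genes that handle SOX proteins or act with them, 8 were lower and 1 higher, beside 35.7% and 45.1% of all genes tested, and the median of their log2 changes was -0.34. The count of lower genes was 7 with quantile normalization, without the filter, with the replicate block and without control replicate 1 or 3 or UDCA replicate 2 or 3. CALM2 and CALM3, calmodulin genes whose product takes part in nuclear import of SOX9, fell 2.39-fold and 3.06-fold. FBXW7, a ubiquitin ligase subunit that acts on SOX9, fell 1.45-fold, to 3.10 ± 0.135 FPKM with UDCA, against 4.50 ± 0.146 FPKM in control. CREBBP, a histone acetyltransferase, rose 1.17-fold, to 9.61 ± 0.199 FPKM with UDCA, against 8.21 ± 0.123 FPKM in control.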
